A study of Homo sapiens with 16 samples.

Results

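The genes of cholesterol and fatty acid synthesis were examined in MDA-MB-231, an established human line of triple-negative breast cancer, after induction of a short hairpin RNA against AKAP2. The members were fixed by name: 37 genes, each found as 1 row of the 57500 in the deposited count table, and all 37 passed the filter on low counts that left 15566 genes to test. They fall into 7 mevalonate genes (ACAT2, HMGCS1, MVK, PMVK, MVD, IDI1, FDPS) and 12 sterol genes (FDFT1, SQLE, LSS, CYP51A1, TM7SF2, LBR, MSMO1, NSDHL, HSD17B7, EBP, SC5D, DHCR7). There are also 1 gene of the isoprenoid branch (GGPS1), 5 regulators (SREBF1, SREBF2, SCAP, INSIG1, INSIG2), 4 genes of cholesterol transport (STARD4, NPC1, NPC2, ABCA1) and 8 fatty acid genes (ACLY, ACSS2, ACACA, FASN, ELOVL6, SCD, FADS1, FADS2). The mevalonate and sterol genes together are called the sterol arm below, with 19 genes. The members were chosen with earlier results of these data known, so their counts beside all genes are descriptive.

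All cells were MDA-MB-231 and carried a hairpin under doxycycline control. The 4 groups were shScramble (a scrambled control hairpin) without doxycycline, shScramble with doxycycline, shAKAP2 without doxycycline and shAKAP2 with doxycycline, with 4 libraries each. The dose and time of doxycycline, the hairpin sequence, and whether each line is a clone or a pool are not stated in the labels. The libraries are labelled as biological replicates, with no statement that each had a culture of its own, so p-values reflect how far these libraries spread. A single hairpin in a single cell line was compared, so an effect of AKAP2 loss and another effect of that hairpin cannot be told apart.

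Total counts were 24482997 to 37472525 per library, and levels are CPM, read counts scaled to a common library size. In every list of levels by library, replicates 1 to 4 stand in that order. The targeted gene AKAP2 (ENSG00000241978, chr9:110048598-110172512, plus strand, GRCh38) was at 1.43, 1.38, 1.41 and 1.45 CPM in shAKAP2 libraries without doxycycline and at 0.124, 0, 0.0376 and 0 CPM with it, and at 1.48, 0.959, 1.00 and 1.24 and 0.858, 1.60, 2.19 and 2.38 CPM in the shScramble libraries. The readthrough gene PALM2-AKAP2 covers 85.8% of its exons on the same strand, and its level is not given here. Reads in the shared exons may be missing from the AKAP2 row, which held 168 reads over the uninduced and 4 over the induced shAKAP2 libraries. The row thus serves as a check of the labels, not as the size of the knockdown. Of 7 mesenchymal markers of MDA-MB-231, VIM had 1303 to 1807 CPM and SPARC, the lowest, 0.627 to 4.60 CPM. Of 9 luminal markers, FOXA1 and PGR had at most 0.0780 and 0.115 CPM, while the keratins KRT8, KRT18 and KRT19 had at least 483, 301 and 149 CPM. The 2 shScramble libraries numbered replicate 1 stood apart. The SD over all tested genes of their log2 difference from the other 3 libraries of their group was 0.562 and 0.614, against 0.383 to 0.468 in the other 14. Both were also high in the genes described here, so counts of members are given with and without them where they move.

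Cells build cholesterol from acetyl-CoA through mevalonate, farnesyl diphosphate and squalene, which is closed into lanosterol and then trimmed, reduced and isomerised to cholesterol. Most of these enzymes are transcribed under SREBF2, and many fatty acid enzymes under SREBF1. Both factors are made as membrane precursors that SCAP carries to the Golgi for cleavage when sterols are low and that the INSIG proteins hold back in the endoplasmic reticulum when sterols are high. Liver X receptors, which oxysterols activate, drive export through ABCA1 and also transcription of SREBF1 and SCD.

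Most genes of the sterol arm rose with doxycycline in shAKAP2 cells, while no fatty acid gene passed as risen with all libraries in the fit. Of the 37 members, 13 rose and 3 fell with doxycycline in the shAKAP2 line, where 13.1% of all tested genes rose and 15.2% fell. Of these, 12 of the 13 that rose belong to the sterol arm, in which 1 of 19 fell, and the other is NPC2. The median log2 fold change was 0.62 over the sterol arm and -0.005 over the 8 fatty acid genes, where 0 rose and 2 fell (2 and 2 with the shAKAP2 libraries alone), beside a median of 0.0016 over all genes tested. A gene counts as risen or fallen at an adjusted p under 0.05 (edgeR's quasi-likelihood test, Benjamini-Hochberg over all 15566 genes). All 4 induced libraries lay above all 4 uninduced libraries for 15 sterol arm genes and below them for 1. Over the 37 members this held for 19 and 5, against 18.4% and 18.1% of all genes. In these bulk libraries, fewer cells with a transcript and less of it per cell cannot be told apart.

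**Figure D1:**
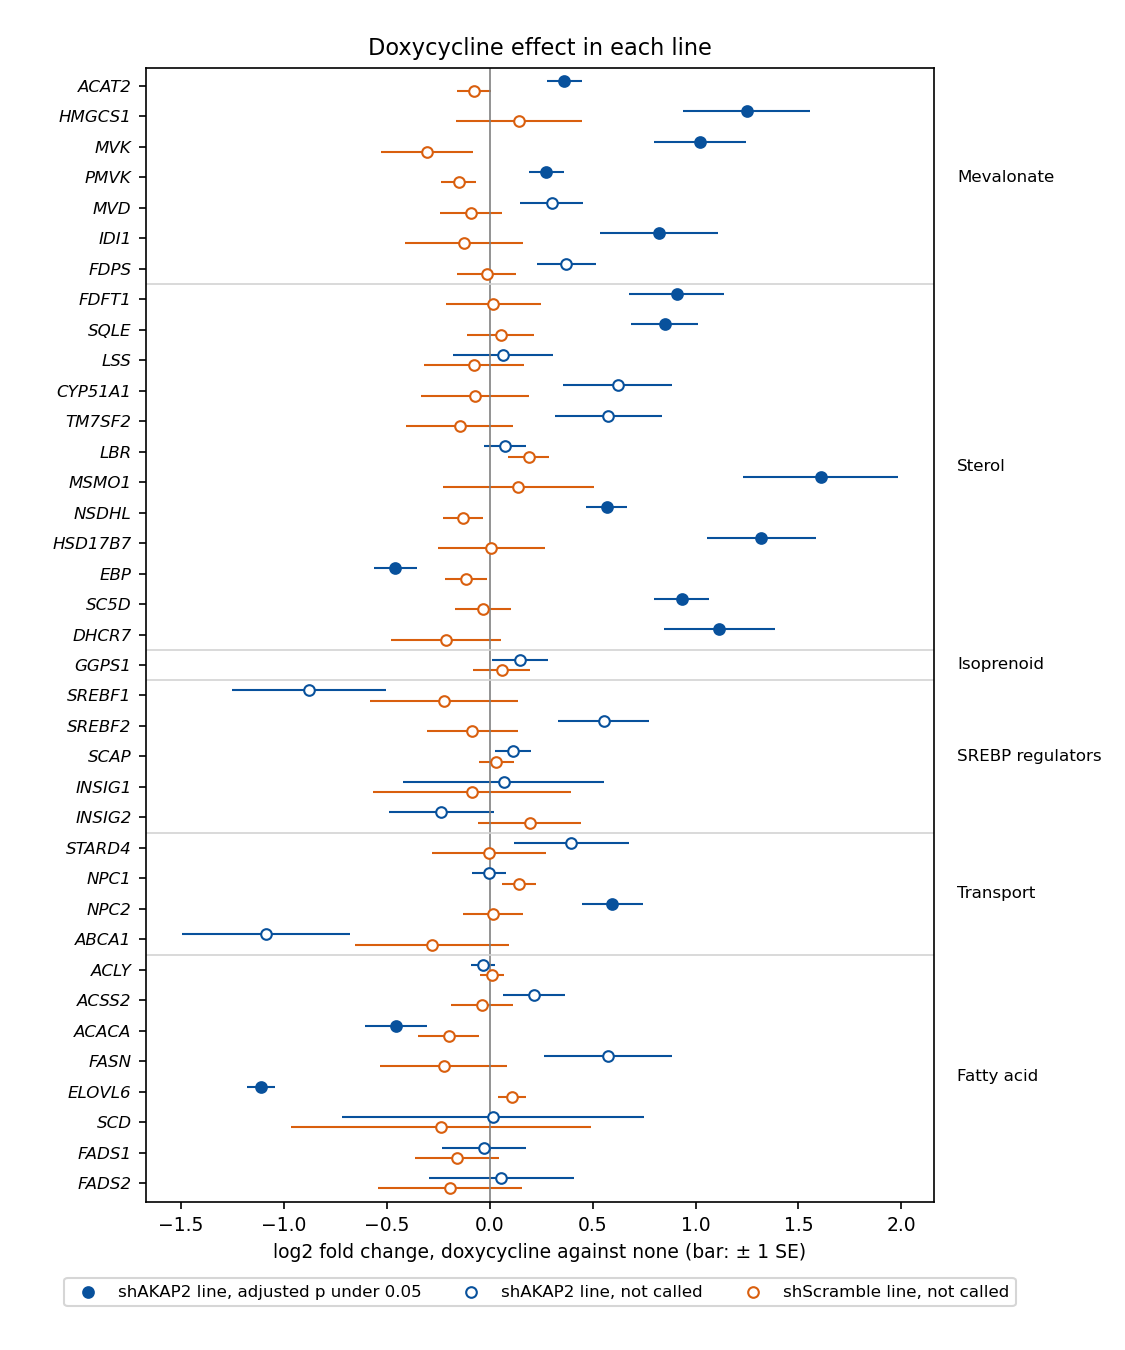
Log2 fold change of each member with doxycycline (x axis, bars ± 1 SE), in the shAKAP2 line in blue and the shScramble line in orange; filled points passed an adjusted p under 0.05. In the shAKAP2 line 12 of 19 mevalonate and sterol genes lie to the right and pass, while no point of the shScramble line is filled.

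In the mevalonate section, 5 of 7 genes rose. MVK, mevalonate kinase, was at 10.96, 15.6, 12.9 and 16.1 CPM in the uninduced shAKAP2 libraries and at 26.1, 24.2, 29.4 and 32.9 CPM in the induced ones. Every induced library was above every uninduced one, a 2.03-fold rise (log2 fold change 1.02, SE 0.224, adjusted p = 0.00238). ACAT2, the cytosolic thiolase that makes acetoacetyl-CoA at the head of the pathway, went from 132, 137, 135 and 134 CPM to 161, 172, 181 and 177 CPM. The induced values again lay clear of the uninduced ones, but the step was small (log2 fold change 0.36, SE 0.0849, adjusted p = 0.00281). PMVK, phosphomevalonate kinase, was at 28.98, 32.1, 31.8 and 29.9 CPM without and 33.6, 42.05, 38.7 and 34.1 CPM with doxycycline (log2 fold change 0.27, SE 0.0851, adjusted p = 0.0194).

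HMGCS1, the synthase that makes HMG-CoA, rose from 57.98, 66.2, 57.9 and 87.3 CPM to 145, 152, 156 and 187 CPM (log2 fold change 1.25, SE 0.310, adjusted p = 0.00818). IDI1, the isopentenyl diphosphate isomerase, was at 97.5 to 133 CPM without and 170.0 to 219.7 CPM with doxycycline (log2 fold change 0.82, SE 0.288, adjusted p = 0.0477). Its call rests on few libraries. It was lost in 11 of the 16 fits that each left out 1 library, and held without replicate 1, 3 or 4 of shScramble with doxycycline and without replicate 1 or 3 of shScramble without it. PMVK lost its call without replicate 2 or 3 of the induced shAKAP2 libraries or replicate 1 or 4 of the uninduced ones. MVD (log2 fold change 0.30, SE 0.151, adjusted p = 0.150) and FDPS (log2 fold change 0.37, SE 0.144, adjusted p = 0.0631), which make isopentenyl and farnesyl diphosphate, did not pass, although their induced libraries lay above the uninduced ones. GGPS1, which leads farnesyl diphosphate to geranylgeranyl diphosphate, had a log2 fold change of 0.15 (SE 0.138).

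In the sterol section, 7 of 12 genes rose and 1 fell. MSMO1, the sterol C4-methyl oxidase (ENSG00000052802, chr4:165327623-165343160, plus strand), had the largest rise of any member, 3.05-fold, from 82.04, 87.9, 94.9 and 123 CPM to 255, 289.8, 324 and 314 CPM (log2 fold change 1.61, SE 0.376, adjusted p = 0.00603). SC5D, the sterol C5-desaturase (ENSG00000109929, chr11:121292453-121308694, plus strand), had the smallest p of the arm, with 74.4, 74.9, 80.6 and 88.5 CPM without and 147, 148, 162 and 151 CPM with doxycycline (log2 fold change 0.93, SE 0.135, adjusted p = 4.01e-05). In both genes the lowest induced library was well above the highest uninduced one. NSDHL and HSD17B7, which act with MSMO1 to remove the methyl groups at C4, rose as well. NSDHL was at 23.1, 24.9, 27.3 and 27.1 CPM and then 37.4, 39.1, 36.2 and 39.02 CPM (log2 fold change 0.57, SE 0.0986, adjusted p = 0.000181). HSD17B7 was at 9.26, 6.38, 4.60 and 6.72 CPM and then 15.2, 16.6, 18.6 and 17.1 CPM (log2 fold change 1.32, SE 0.264, adjusted p = 0.00110).

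SQLE, squalene epoxidase and a rate-limiting step, was at 32.8, 29.2, 29.1 and 34.1 CPM without and 51.8, 56.7, 56.7 and 60.5 CPM with doxycycline (log2 fold change 0.85, SE 0.164, adjusted p = 0.00072). DHCR7, which reduces 7-dehydrocholesterol in the last steps, was at 56.8, 55.1, 55.5 and 64.7 CPM and then 122, 120.3, 125 and 137 CPM (log2 fold change 1.12, SE 0.270, adjusted p = 0.00647). In both, the induced libraries were tight and apart from the uninduced ones. FDFT1, squalene synthase, rose by a similar amount (log2 fold change 0.91, SE 0.232, adjusted p = 0.00898).

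EBP, the sterol isomerase (ENSG00000147155, chrX:48521158-48528716, plus strand), went the other way. It was at 63.7, 68.02, 70.2 and 77.1 CPM in uninduced and 46.4, 56.1, 51.5 and 48.9 CPM in induced shAKAP2 libraries, with no overlap (log2 fold change -0.46, SE 0.104, adjusted p = 0.00225). The 4 genes of the section that did not pass include LSS, lanosterol synthase (0.07, SE 0.243), and LBR, which carries a sterol reductase activity beside its role in the nuclear envelope (0.07, SE 0.101), both given as log2 fold changes. The other two were CYP51A1, the lanosterol demethylase, and TM7SF2, a sterol reductase. Their log2 fold changes were 0.62 (SE 0.265, adjusted p = 0.0906) and 0.58 (SE 0.259, adjusted p = 0.105). All 4 induced libraries were above the uninduced ones for CYP51A1, not for TM7SF2.

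Some of these counts are uncertain, because no source states whether the counting used strand. CYP51A1 shares 79.3% of its exonic bases with AC000120.2 on the same strand, and GGPS1 37.3% with TBCE. ACAT2 overlaps SOD2 (26.5%) and SOD2-OT1 (33.9%) on the opposite strand. Antisense transcripts also cover 18.6% of FDPS, 15.0% of HMGCS1 and 14.8% of IDI1, and HSD17B7 has near-identical pseudogene copies.

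The spread of the shScramble libraries entered these tests, since all 16 libraries shared 1 estimate of the spread per gene. With the 8 shAKAP2 libraries alone, 20 members rose and 6 fell, and the same counts were reached when both shScramble replicate 1 libraries were left out. Of all genes tested in these fits, 21.7% rose and 21.9% fell with the shAKAP2 libraries alone, and 19.3% and 20.1% without the 2 libraries. All 16 calls of the full fit were kept in both, and the same 26 genes were called. The sterol arm then had 16 risen and 1 fallen gene of 19, with MVD, FDPS, CYP51A1 and TM7SF2 added. The other 6 added genes were SREBF2, FASN and ACSS2 (higher) and SREBF1, INSIG2 and ABCA1 (lower). Without shScramble replicate 1 of the uninduced group alone, 5 members fell in place of 3, and the share of all genes in that fit is not given.

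**Figure D2:**
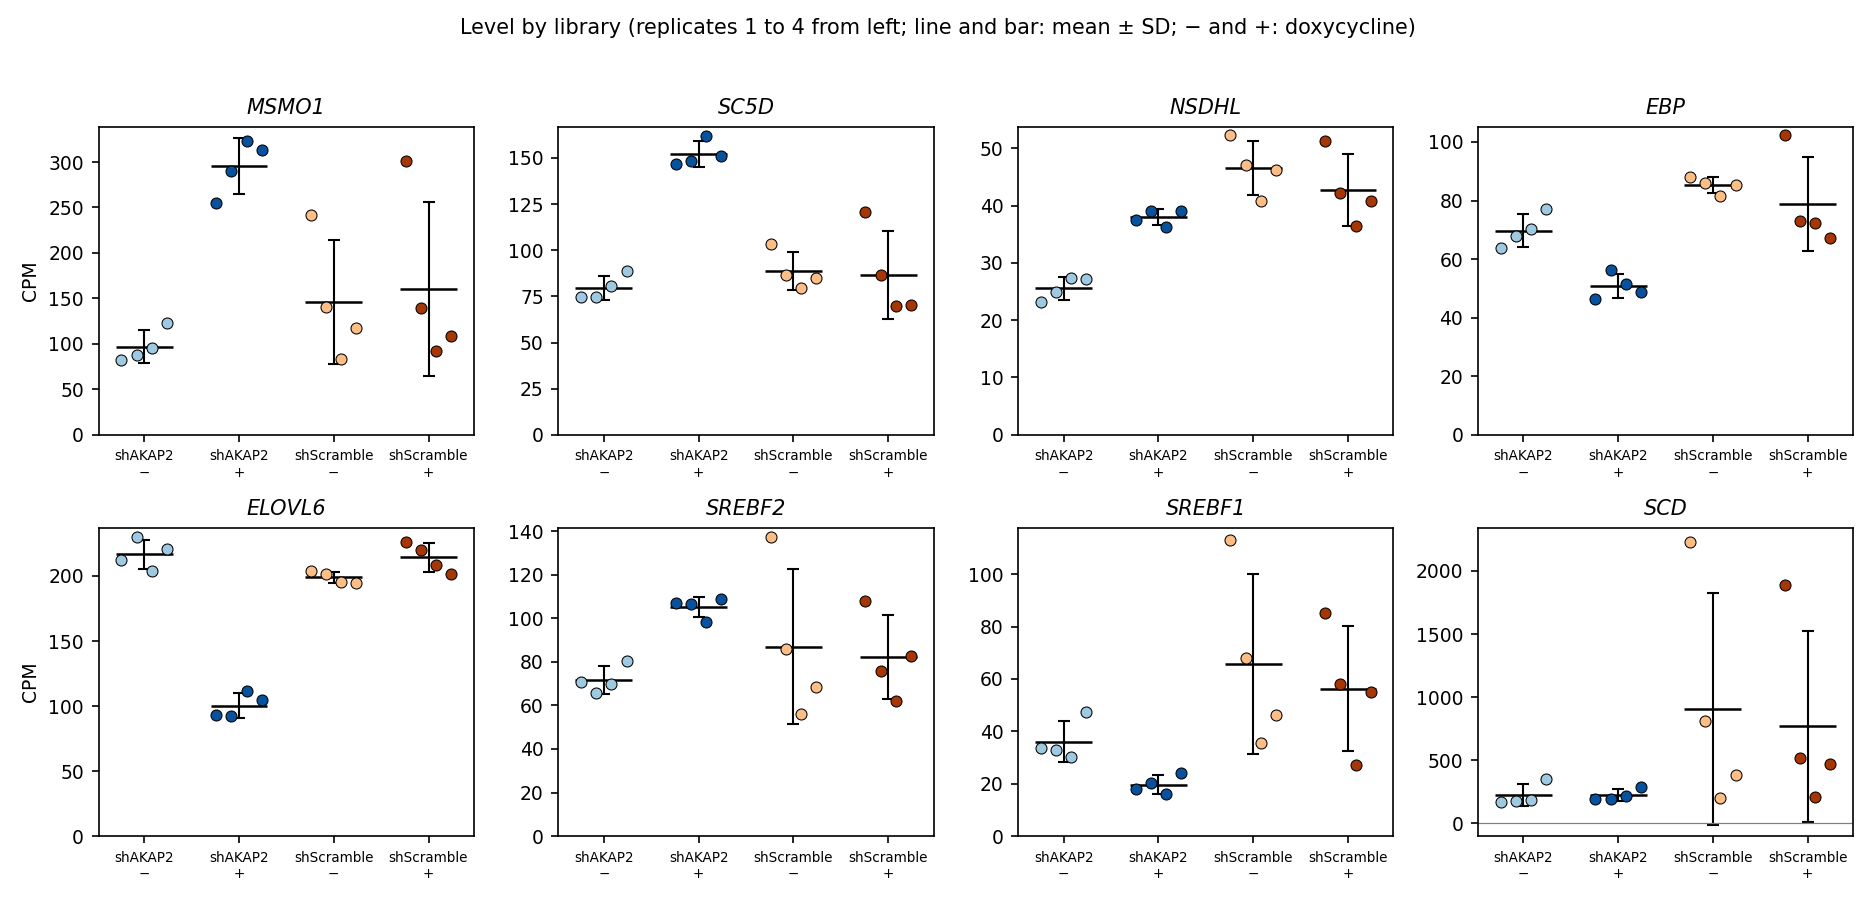
Level in CPM (y axis, from 0 except for SCD, whose error bar passes below 0) of 8 members in each library, by line and doxycycline; points are replicates 1 to 4 from left, lines and bars mean ± SD of 4. MSMO1, SC5D and NSDHL are higher and ELOVL6 and EBP lower in induced shAKAP2 libraries without overlap, and shScramble replicate 1 is the highest point of its group in every panel.

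To show the sequence before genes that moved together, RefSeq promoter windows (GRCh38.p14, 250 bases before to 50 after a start) were matched by symbol for 33 of the 37 members, with 47 windows because some genes have several starts; ACAT2, FASN, SQLE and FDFT1 had none in the table used. Both strands were searched for CCAAT (the box bound by NF-Y), GGGCGG (the core of the Sp1 box) and TCACNCCAC (a core of the classical sterol regulatory element). CCAAT was present in 15 of 21 (71.4%) sterol arm windows, 7 of 12 (58.3%) fatty acid windows and 34.6% of all 35116 windows. Windows of 1 gene overlap, so per gene the counts were 13 of 16 sterol arm genes, 5 of 7 fatty acid genes and 42.9% of the 10667 tested genes with a window. Within the sterol arm, CCAAT was in 10 of 14 (71.4%) windows of genes that rose and in 5 of 7 (71.4%) of the others. GGGCGG was in 41 of 47 (87.2%) member windows against 45.0% of all. Per gene it was in 31 of 33 members (93.9%) against 76.1% of tested genes with a window. TCACNCCAC was in 1 of 47 (2.13%) against 1.13%.

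The 250 bases before the start are printed for 5 genes, 5′ to 3′ on the strand of the gene and in lower case. CCAAT or its reverse complement ATTGG, and the TCACNCCAC match, are in capitals. MSMO1 (chr4:165327419-165327668, plus strand) is shown for its size of rise and holds 4 CCAAT matches. MVK (chr12:109573544-109573793, plus strand) and NSDHL (chrX:152830813-152831062, plus strand) hold 5 each, a number of 4 or more that 1.86% of tested genes reach in a window. Matches were counted over both strands, and in NSDHL the stretch CCAATTGG was counted once on each. SREBF2 (chr22:41832855-41833104, plus strand) is the member with a TCACNCCAC match, TCACCCCAC. ELOVL6 (chr4:110198616-110198865, minus strand), shown as the member with the largest fall that passed, holds neither. The windows of MVK and ELOVL6 lie inside the longer GENCODE genes, and those of MSMO1, NSDHL and SREBF2 reach past the GENCODE start.
MSMO1: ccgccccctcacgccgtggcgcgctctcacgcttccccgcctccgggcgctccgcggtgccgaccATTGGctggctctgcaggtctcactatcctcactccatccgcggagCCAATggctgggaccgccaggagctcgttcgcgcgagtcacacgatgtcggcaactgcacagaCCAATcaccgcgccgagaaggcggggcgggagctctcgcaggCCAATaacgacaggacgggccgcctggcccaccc
MVK: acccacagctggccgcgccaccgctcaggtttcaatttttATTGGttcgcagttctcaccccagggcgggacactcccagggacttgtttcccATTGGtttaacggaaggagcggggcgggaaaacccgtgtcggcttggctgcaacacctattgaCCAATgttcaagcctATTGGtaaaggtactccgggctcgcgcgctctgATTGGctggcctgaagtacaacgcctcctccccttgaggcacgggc
NSDHL: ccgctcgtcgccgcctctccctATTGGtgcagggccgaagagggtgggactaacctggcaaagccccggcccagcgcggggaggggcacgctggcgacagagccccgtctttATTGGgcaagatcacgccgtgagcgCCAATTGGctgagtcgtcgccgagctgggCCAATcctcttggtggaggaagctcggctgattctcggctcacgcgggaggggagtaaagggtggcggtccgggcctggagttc
SREBF2: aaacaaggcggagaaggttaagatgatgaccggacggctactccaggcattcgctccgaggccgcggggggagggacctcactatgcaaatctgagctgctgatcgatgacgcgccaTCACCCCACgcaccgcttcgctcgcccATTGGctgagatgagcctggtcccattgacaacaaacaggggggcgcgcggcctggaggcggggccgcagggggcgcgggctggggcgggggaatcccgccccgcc
ELOVL6: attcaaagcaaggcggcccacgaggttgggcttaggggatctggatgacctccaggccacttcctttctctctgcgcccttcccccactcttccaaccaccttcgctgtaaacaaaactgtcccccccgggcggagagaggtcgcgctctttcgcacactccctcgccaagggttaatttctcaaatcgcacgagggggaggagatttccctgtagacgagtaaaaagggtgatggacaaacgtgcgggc

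A match is a description of these letters, not of binding, which was not measured here. None of the 5 regulators passed the test in the shAKAP2 line with all libraries in the fit. SREBF2 (ENSG00000198911, chr22:41833079-41907308, plus strand), the main factor of the sterol genes, was at 70.98, 65.6, 69.8 and 80.3 CPM without and 107, 107, 98.3 and 109 CPM with doxycycline. SREBF1 (ENSG00000072310, chr17:17810399-17837002, minus strand) was at 33.6, 32.99, 30.1 and 47.6 CPM without and 17.8, 20.3, 16.2 and 24.2 CPM with it. The induced libraries of SREBF2 were all above and those of SREBF1 all below their uninduced ones. SREBF2 had log2 fold change 0.55, SE 0.221, adjusted p = 0.0778, and SREBF1 had log2 fold change -0.88, SE 0.374, adjusted p = 0.100. Both passed when only the 8 shAKAP2 libraries were fitted and when both shScramble replicate 1 libraries were left out. They also passed when replicate 1 of uninduced shScramble alone was left out, and SREBF2 passed without replicate 3 of that group. With all libraries and a block for replicate number, both passed edgeR's test as well (adjusted p = 0.0236 for SREBF2 and 0.0365 for SREBF1).

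INSIG1, which retains the SCAP complex and is itself a strong SREBP target, was at 64.9, 72.2, 72.1 and 119.9 CPM and then 74.6, 84.3, 85.8 and 101 CPM, with the groups overlapping (log2 fold change 0.07, SE 0.489, adjusted p = 0.939). The overlap rested on uninduced replicate 4, since the rest of that group, at 64.9 to 72.2 CPM, lay below every induced library. Over the alternative fits its log2 fold change was -0.03 to 0.31 and was never called. INSIG2 (-0.23, SE 0.256) and SCAP (0.11, SE 0.0868) also had log2 fold changes that did not pass.

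Among the transport genes, NPC2, the lysosomal protein that hands cholesterol to NPC1, rose from 201, 211, 199 and 217 CPM to 287, 319.9, 337 and 307 CPM without overlap (log2 fold change 0.60, SE 0.147, adjusted p = 0.00571). NPC1 itself had a log2 fold change of -0.0023 (SE 0.0821). ABCA1, the exporter, was at 11.8, 12.7, 11.5 and 21.7 CPM and then 4.78, 5.50, 7.14 and 9.81 CPM. Every induced library was below every uninduced one, but the test with all libraries did not pass (log2 fold change -1.09, SE 0.408, adjusted p = 0.0631). It passed in the shAKAP2 libraries alone and without both shScramble replicate 1 libraries. Leaving out replicate 4 of the induced shAKAP2 group, or replicate 1 or 3 of uninduced shScramble, also let it pass. With all libraries it passed by DESeq2 (adjusted p = 0.0274) and by edgeR with a block for replicate number (adjusted p = 0.0462). STARD4, a cytosolic sterol carrier, had a log2 fold change of 0.40 (SE 0.281).

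In the fatty acid arm the clearest change was a fall. ELOVL6, the elongase that takes palmitate to stearate (ENSG00000170522, chr4:110045846-110199199, minus strand), was at 213, 230.1, 204 and 221 CPM without and 93.1, 92.3, 112 and 104 CPM with doxycycline in the shAKAP2 line. All induced libraries were below all others of the series, including the shScramble libraries at 204, 202, 196 and 195 CPM and 226, 220.3, 209 and 201 CPM. The fall was 2.16-fold and had the smallest p of all members (log2 fold change -1.11, SE 0.0683, adjusted p = 1.81e-10). ACACA, acetyl-CoA carboxylase, was at 89.7, 86.3, 80.98 and 92.6 CPM and then 73.2, 59.5, 51.8 and 70.6 CPM (log2 fold change -0.45, SE 0.151, adjusted p = 0.0318). It lost its call without replicate 2 or 3 of the induced or replicate 1, 2 or 4 of the uninduced shAKAP2 libraries.

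FASN, fatty acid synthase, was at 69.4, 71.1, 63.02 and 73.5 CPM and then 124, 90.99, 86.9 and 111 CPM, above the uninduced libraries in every case but not called (log2 fold change 0.57, SE 0.309, adjusted p = 0.193); it passed without replicate 1 of uninduced shScramble. SCD, the stearoyl-CoA desaturase and a target of both SREBF1 and liver X receptors, had a log2 fold change of 0.02 with an SE of 0.733. Uninduced replicate 4, at 352 CPM, stood far above the rest of its group, at 171 to 186 CPM. That rest lay below every induced library, the lowest of which was at 195 CPM. Over the alternative fits the log2 fold change of SCD was -0.14 to 0.33 and was never called. ACLY, which makes cytosolic acetyl-CoA from citrate, had a log2 fold change of -0.03 (SE 0.0571). ACSS2, FADS1 and FADS2, an acetyl-CoA synthetase and the desaturases of polyunsaturated fatty acids, had log2 fold changes of 0.21, -0.03 and 0.06 (SE 0.151, 0.204 and 0.352).

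Summed marker levels, of MDA-MB-231 itself and of other cells, differed without overlap in the same comparison for 3 of 5 lists. The 7 mesenchymal markers summed to 6687 to 7026 CPM in uninduced and 5954 to 6182 CPM in induced shAKAP2 libraries, and 3 of the 7 fell. The summed level of 9 luminal markers was 1064 to 1108 CPM in uninduced and 1286 to 1428 CPM in induced shAKAP2 libraries. That of 10 blood markers was 70.3 to 79.4 and then 46.3 to 62.6 CPM, most of it LAPTM5, with CD3E and HBB at 1 count each over all 16 libraries. That of 9 fibroblast markers was 21.6 to 33.6 and then 19.6 to 21.8 CPM, with overlap. Of 6 adipocyte markers, ADIPOQ and LEP were at 0 in all 16 libraries, and the sum was 1.99 to 2.78 CPM without and 0.659 to 2.14 CPM with doxycycline, also with overlap. Among single markers tested in these 4 lists, 2 of 7 luminal markers rose, and 2 of 6 blood and 3 of 7 fibroblast markers fell. Of the adipocyte markers 2 were tested and 0 called. Over all tested genes 13.1% rose and 15.2% fell. Mitochondrially encoded genes took a share of counts of 1.86% to 2.38% without and 1.02% to 2.04% with doxycycline. Their part in the result was not tested.

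Doxycycline in the shScramble line, the control for the drug and for hairpin expression, called no member. By edgeR's quasi-likelihood test 0 of 37 rose and 0 fell, where 0.559% and 0.52% of all tested genes did. At an unadjusted p under 0.05 the count was also 0, and DESeq2 and limma-voom called 0 as well. The smallest adjusted p of a member was 0.603. These tests did not pair libraries by number. In this line, libraries of equal number correlated at 0.0234 to 0.4002 in their deviations from their group. Variation shared in this way widens the spread that an unpaired test or a count of overlap meets. A count of 0 thus does not show that no member responded, and a paired test within this line was not run. No member separated the 4 libraries with doxycycline from the 4 without, against 2.29% of genes that lay higher and 2.15% that lay lower without overlap. The median log2 fold change was -0.08 over the 37 members and over the sterol arm, and ranged from -0.30 (MVK) to 0.19 (INSIG2). With both replicate 1 libraries left out, LBR (0.20) and NPC1 (0.26) were called higher and EBP (-0.25) lower on the log2 scale.

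The difference between the doxycycline effects of the lines, tested as an interaction term, passed for 9 members. It was higher in the shAKAP2 line for 8, against 7.53% of all genes, and lower for 1, against 10.5%. The 8 were ACAT2, MVK, PMVK, SQLE, NSDHL, HSD17B7, SC5D and DHCR7, all of the sterol arm, and the 1 was ELOVL6. SC5D had 104, 86.4, 79.7 and 85.1 CPM without and 120.5, 86.7, 69.8 and 70.1 CPM with doxycycline in the shScramble line, and a difference of effects of 0.97 (SE 0.190, adjusted p = 0.00153). For ELOVL6 the difference was -1.22 (SE 0.0956, adjusted p = 1.48e-08). MVK and DHCR7 had the largest differences of those that passed, 1.32 and 1.33 (SE 0.316 and 0.379).

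The corresponding shScramble levels of MVK were 27.6, 20.3, 13.9 and 14.6 CPM without and 22.5, 14.2, 11.1 and 14.4 CPM with doxycycline, and those of DHCR7 121, 74.1, 44.9 and 58.5 and 99.04, 56.7, 45.9 and 56.5 CPM. Replicate 1 was the highest of its group in all 4 sets. SQLE was at 38.8, 29.9, 22.7 and 29.5 and 44.01, 29.1, 22.6 and 30.1 CPM, NSDHL at 52.3, 47.1, 40.8 and 46.2 and 51.3, 42.1, 36.4 and 40.8 CPM, and HSD17B7 at 12.9, 9.81, 7.94 and 9.56 and 17.9, 8.02, 7.16 and 7.55 CPM. ACAT2 and PMVK did not follow that order, with 102, 131, 137 and 151 and 122, 129.6, 122 and 121 CPM for ACAT2 and 27.9, 29.3, 32.6 and 30.8 and 25.02, 28.3, 26.6 and 28.6 CPM for PMVK.

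The difference did not pass for MSMO1 (1.47, SE 0.522, adjusted p = 0.0720) or HMGCS1 (1.10, SE 0.434, adjusted p = 0.102), whose shScramble libraries were widely spread. With DESeq2 and limma-voom on all libraries MSMO1 did pass (adjusted p = 0.0438 and 0.0490). MSMO1 was at 242, 141, 83.5 and 118 CPM without and 301, 139.7, 92.7 and 109 CPM with doxycycline there, and HMGCS1 at 130.5, 96.4, 49.9 and 66.4 and 155, 85.3, 61.9 and 77.5 CPM, so that in both genes replicate 1 with doxycycline reached the induced shAKAP2 levels. Without replicate 1 of shScramble with doxycycline, 16 members had a higher effect in the shAKAP2 line. Without both shScramble replicate 1 libraries, 15 did and 3 had a lower one, with MSMO1 and HMGCS1 among the 15. The shares of all tested genes called in these fits are not given here. The larger counts are thus not read as particular to the members. DHCR7 lost its call without replicate 2 of uninduced shAKAP2 or replicate 2, 3 or 4 of shScramble with doxycycline, and PMVK without replicate 2 of induced shAKAP2, at adjusted p values up to 0.0569.

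The same genes varied within the shScramble line without any labelled difference in treatment. Replicate 1 was the highest of the 4 libraries both without and with doxycycline for 30 of 37 members, against 20.4% of all tested genes. Replicate 3 was the lowest in both for 25 of 37, against 8.93%. Both held at once for 24, against 5.13%. The median log2 difference of replicate 1 from the other 3 was 0.65 without and 0.72 with doxycycline over the members, and 0.00920 and 0.0159 over all genes. The labels say nothing of what equal numbers share, and this order is given as a description. The members took 0.718% and 0.676% of all counts in replicate 1, against 0.321% to 0.469% in the other 6 shScramble libraries. This share is weighted to SCD, which was at 2229.5 and 1885 CPM in these replicate 1 libraries. The summed luminal markers were also highest in replicate 1, at 1319 CPM of a range of 969 to 1319 CPM without and 1546 CPM of 1086 to 1546 CPM with doxycycline. The fibroblast sums were highest in replicate 1 as well (46.7 CPM of 24.97 to 46.7 and 70.5 CPM of 46.7 to 70.5), and the blood sums lowest (82.04 CPM of 82.04 to 103 and 132 CPM of 132 to 180.1). Their part was not tested.

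SCD had the widest range. It was at 2229.5, 813, 199 and 380.0 CPM in the shScramble libraries without and 1885, 515, 209 and 470.4 CPM in those with doxycycline, a ratio of 11.2 between the highest and the lowest of the 8. In the shAKAP2 libraries it was at 171, 177, 186 and 352 and 196, 195, 216 and 290.5 CPM, where replicate 4 was the highest of each group. INSIG1 was at 334, 204, 68.2 and 123 and 335, 150.3, 75.1 and 127 CPM in shScramble, a ratio of 4.91, and SREBF1 at 113, 67.99, 35.5 and 46.1 and 85.2, 57.96, 27.00 and 55.04 CPM, a ratio of 4.18. In all 3 genes replicate 1 was the highest and replicate 3 the lowest library of each shScramble group. ACLY (1.14), ELOVL6 (1.16), PMVK (1.30) and SCAP (1.31) had the smallest ratios of the 8 libraries. PMVK and LBR had replicate 1 as the lowest library in both groups.

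Both arms were high in shScramble replicate 1, whereas in the induced shAKAP2 libraries the sterol arm was high and the fatty acid arm was not. Each arm was summarised per library as the mean over its genes of log2 CPM minus the gene's mean over the 16 libraries. In shScramble replicate 1 without doxycycline the sterol arm stood at 0.35 and the fatty acid arm at 0.87; with doxycycline they stood at 0.44 and 0.65. In the 4 induced shAKAP2 libraries the sterol arm was at 0.29 to 0.46, in the same range, but the fatty acid arm was at -0.26 to -0.09. That overlaps the uninduced shAKAP2 libraries, at -0.18 to 0.08, and lies above shScramble replicate 3, at -0.33 without and -0.29 with doxycycline. Sterol minus fatty acid was 0.47 to 0.65 in those 4 libraries, -0.21 to -0.15 in uninduced shAKAP2, -0.52 to 0.01 in uninduced shScramble and -0.30 to -0.10 in induced shScramble. The 4 induced shAKAP2 libraries were the highest 4 of the 16 on this difference, with no overlap with any other group. These values describe the lists and carry no test.

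**Figure D3:**
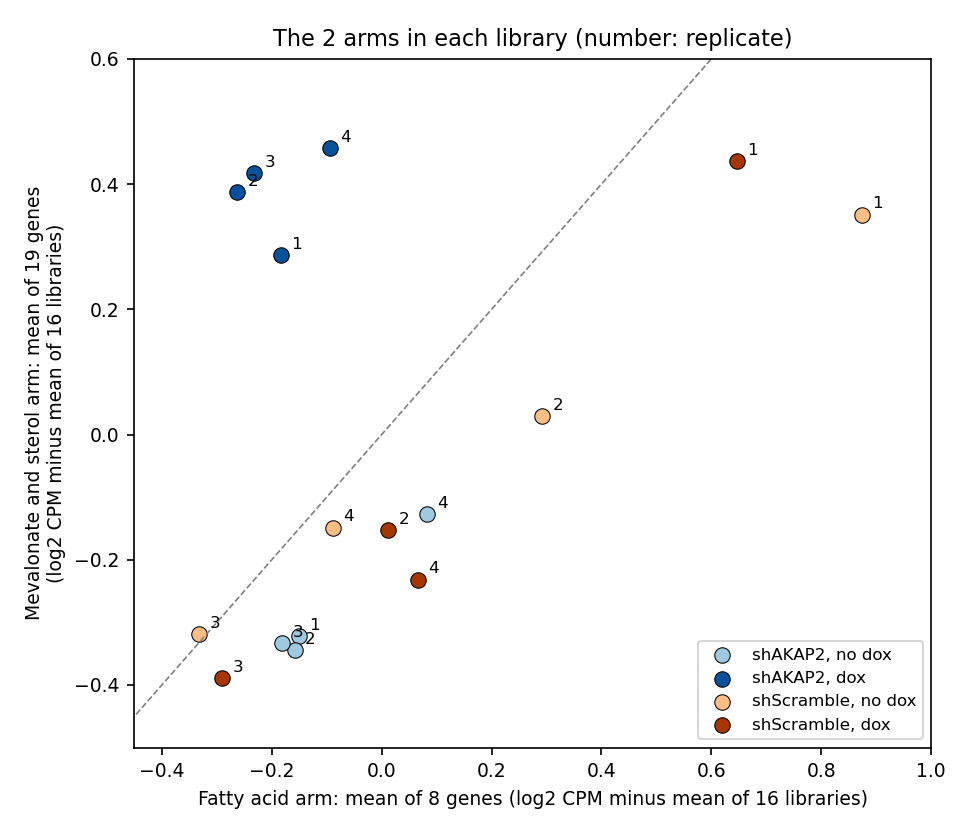
Mean of the 19 mevalonate and sterol genes (y axis) against the mean of the 8 fatty acid genes (x axis) in each library, as log2 CPM minus the mean of 16 libraries; colours are groups, numbers replicates, and the dashed line marks equal values. The induced shAKAP2 libraries lie above the line at the upper left, while both shScramble replicate 1 libraries lie at the upper right below it.

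**Figure D4:**
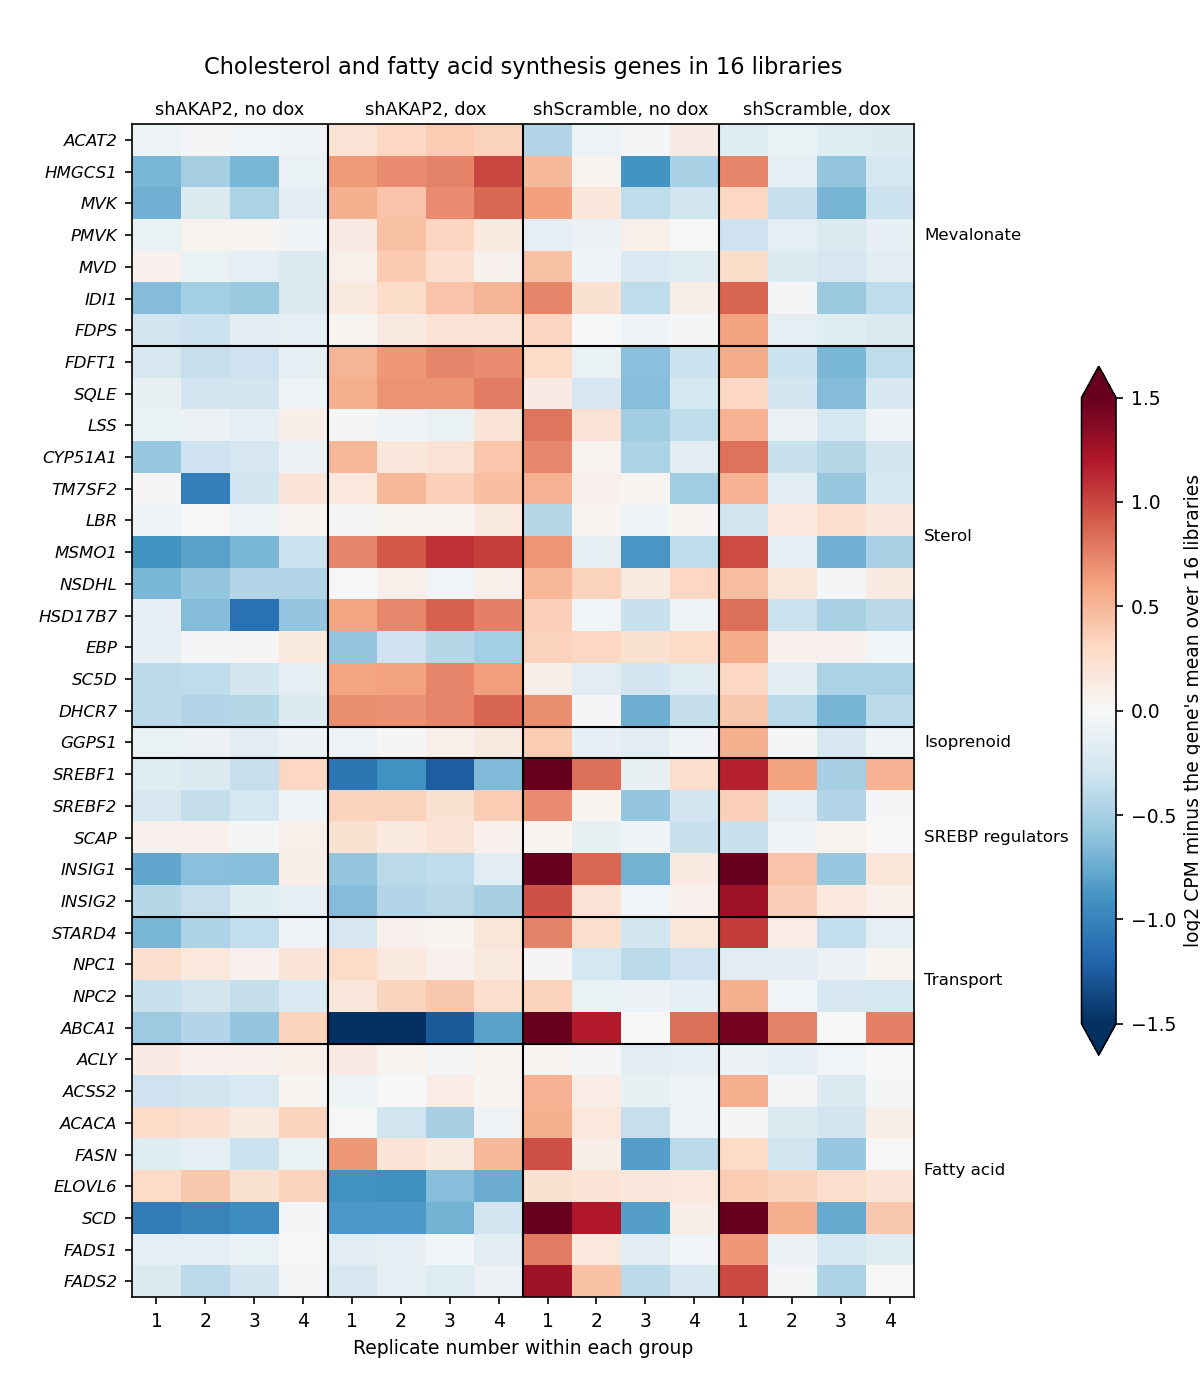
Log2 CPM minus the gene's mean over 16 libraries (colour, saturating at ± 1.5) for the 37 members (from top to bottom, by role) in each library (from left to right, by group and replicate). Induced shAKAP2 libraries are red over most mevalonate and sterol genes and blue at EBP, SREBF1, INSIG1, INSIG2, ABCA1, ELOVL6 and SCD, among others. Colour is set against all 16 libraries, so blue by itself is not a fall with doxycycline. In shScramble, replicate 1 is the reddest of its group for most members.

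With doxycycline in both lines, 10 members were higher in shAKAP2 than in shScramble cells and 5 lower, against 18.7% and 21.5% of all tested genes. The 10 were 8 sterol arm genes (ACAT2, MVK, PMVK, FDFT1, SQLE, HSD17B7, SC5D and DHCR7) with SCAP and NPC1. The 5 were ABCA1 (-2.16, SE 0.409), SREBF1 (-1.52, SE 0.376), ELOVL6 (-1.09, SE 0.0683), INSIG2 (-1.05, SE 0.257) and EBP (-0.63, SE 0.105), as log2 differences between the lines. ABCA1 was at 46.6, 28.8, 17.3 and 29.2 CPM in shScramble with doxycycline, above all 4 shAKAP2 libraries with doxycycline. Without replicate 1 of shScramble with doxycycline, 17 members were higher, and without both replicate 1 libraries 19 were higher and 6 lower, LBR being added to the 5. For these fits, too, the shares of all tested genes are not given, so the gain is not read as particular to the members. HSD17B7, NPC1 and SCAP each lost their call in some fits that left out 1 library, SCAP also without that replicate 1.

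Without doxycycline, 1 member was higher in shAKAP2 cells, against 8.65% of all tested genes, and 2 were lower, against 9.31%. NPC1 was at 146, 137, 128 and 139 CPM in shAKAP2 and 123, 102, 92.04 and 98.9 CPM in shScramble libraries (log2 difference 0.40, SE 0.0823, adjusted p = 0.00241). NSDHL was lower in shAKAP2 (-0.86, SE 0.0984, adjusted p = 6.68e-06), and its induced level of 36.2 to 39.1 CPM lay near the lower end of the shScramble range of 36.4 to 52.3 CPM. ABCA1 was lower too (-1.35, SE 0.386, adjusted p = 0.0282). These counts move with single libraries. Without replicate 1 of shScramble with doxycycline, 2 were higher and 11 lower, and without replicate 1 of uninduced shScramble 2 were higher and 1 lower. Without replicate 1, 2 or 3 of uninduced shAKAP2, or replicate 2 of uninduced shScramble, 1 was lower. Without both shScramble replicate 1 libraries 3 were higher and 6 lower. How many of all tested genes were called in these fits is not given, so the moves are not read as particular to the members. The comparisons share libraries with those above and are not independent of them. Over the sterol arm without doxycycline, 4 of 19 log2 differences between the lines were above 0, with a median of -0.29. With doxycycline 15 of 19 were, with a median of 0.45. The medians over all tested genes were -0.013 and -0.010. A rise within the shAKAP2 line is therefore not a gain of the same size over shScramble.

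Levels between members were compared per kilobase of merged exons (GENCODE 29), in uninduced shAKAP2 libraries (mean ± SD, n = 4). NPC2 (75.3 ± 3.06 CPM per kilobase), ACLY (69.4 ± 1.24) and LBR (63.3 ± 2.43) were the highest. ACLY and LBR differed by more than their SDs, as did NPC2 and ACLY. MSMO1 (33.5 ± 6.24), ACAT2 (31.2 ± 0.476) and FDPS (31.1 ± 1.99) followed SCD (41.3 ± 16.2) and did not differ beyond their spread. TM7SF2 (1.25 ± 0.417), ABCA1 (1.27 ± 0.431) and HSD17B7 (1.41 ± 0.402) were the lowest and also overlapped.

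Other genes of the pathways, from lists written for this comparison, were called in both directions in the shAKAP2 line with doxycycline, and the counts are to be read against the 13.1% of all tested genes that rose and the 15.2% that fell. Of 11 genes of SREBP processing and sterol sensing, 2 rose and 0 fell: ERLIN2, a cholesterol-binding protein of the endoplasmic reticulum (log2 fold change 0.58, SE 0.0557, adjusted p = 1.12e-07), and MBTPS2, the protease of an intramembrane cleavage of SREBPs (log2 fold change 0.44, SE 0.0619, adjusted p = 1.8e-05). Of 8 genes of the liver X receptors and efflux, 0 rose and 1 fell, RXRA, the partner receptor (log2 fold change -0.36, SE 0.0807, adjusted p = 0.00199). Of 15 genes of uptake, transfer and storage of cholesterol, 4 rose and 2 fell. The smallest p values there belonged to GRAMD1B, which moves cholesterol from the plasma membrane (log2 fold change -1.41, SE 0.204, adjusted p = 2.35e-05), OSBP, a sterol exchanger at the Golgi (log2 fold change -0.46, SE 0.0786, adjusted p = 0.000141), and STARD3, a late endosomal sterol carrier (log2 fold change 0.37, SE 0.0806, adjusted p = 0.00167). The medians of these lists were 0.09, 0.08 and 0.18 on the log2 scale, beside 0.0016 over all genes tested.

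Of 14 genes that use isoprenoids, 1 rose and 2 fell: RCE1, which trims prenylated proteins (0.68, SE 0.0963), CHM, an escort of Rab prenylation (-0.48, SE 0.0691), and COQ2, of coenzyme Q synthesis (-0.31, SE 0.0726), as log2 fold changes. Of 17 tested genes among 20 of other fatty acid synthesis and elongation, 3 rose and 4 fell. HACD3 (-0.50, SE 0.0639) and HACD2 (-0.36, SE 0.0705), dehydratases of the elongation cycle in which ELOVL6 acts, fell, and ELOVL1 (0.35, SE 0.0609) rose. Of 15 tested genes among 16 of acyl-CoA and triglyceride synthesis, 2 rose and 2 fell, with ACSL5 (-0.46, SE 0.0596), DGAT2 (1.41, SE 0.189) and AGPAT3 (-0.57, SE 0.0787) leading. Of 17 genes of fatty acid oxidation, 2 rose and 4 fell. ACADM, the medium-chain acyl-CoA dehydrogenase, had the largest of these falls, 4.06-fold (log2 fold change -2.02, SE 0.0976, adjusted p = 4.41e-12), with ETFB lower (-0.51, SE 0.104) and ACAA2 higher (0.35, SE 0.0731). In the shScramble line 1 gene over all these lists was called, in the uptake list, and it fell. A fit without both shScramble replicate 1 libraries was added for these lists after the data were seen. In that fit 19.3% of all tested genes rose and 20.1% fell. The numbers risen and fallen were 3 and 0 for SREBP processing, 3 and 3 for liver X receptors and efflux and 7 and 5 for uptake. They were 3 and 2 for isoprenoid use, 4 and 4 for other fatty acid synthesis, 4 and 3 for acyl-CoA and triglyceride synthesis and 3 and 5 for oxidation.

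The 7-letter word GAACACA, picked from an earlier look at these data because genes that fell hold it more often, was searched in annotated 3′ untranslated regions. Among all tested genes with such a region it was in 32.6% of those that fell, 6.17% of those that rose and 10.8% of the rest. Among the members it was in 0 of the 13 that rose and in 1 of the 3 that fell, EBP, and in SCD and SREBF2 of the 21 others. ELOVL6 and ACACA, the other members that fell, do not hold it. The EBP site (chrX:48528627-48528653, GRCh38, plus strand) is shown with 10 bases on each side and the word in capitals.
EBP: ggagccattaGAACACAgatacaagag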

How the data were processed

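RNA was read as polyA transcripts captured with oligo(dT) and built into libraries with NEBNext Ultra II, per the labels' protocols. The authors deposited raw read counts per gene. Alignment with STAR 2.5.2b to GRCh38 and counting with featureCounts of Subread 1.5.2 are per the submitters' processing notes; no source used here gives the annotation release or strand setting.

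Groups and replicate numbers came from the labels, and 0 sample columns were left unused. The 37 members and all lists were chosen with earlier results of these data known. Counts were filtered by edgeR's filterByExpr (15566 of 57500 genes), scaled by TMM and fitted with edgeR 4.0.16 (R 4.3.3) by robust quasi-likelihood over all 16 libraries with 12 residual degrees of freedom, and p-values were adjusted by Benjamini-Hochberg over all genes tested, with a threshold of 0.05. Each SE given with an edgeR fold change was derived from its test, as the absolute log2 fold change divided by the square root of the F statistic. CPM used TMM-adjusted library sizes. The steps were tested on simulated data. Alternatives were RLE and upper-quartile scaling, DESeq2 1.42.0, limma-voom (limma 3.58.1), no filter, the 2 groups alone, a replicate block, and leaving out each library or both shScramble replicate 1 libraries.

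Members given by library were those with the smallest p in the shAKAP2 doxycycline comparison in each arm (up to 6 for mevalonate plus sterol, 3 for fatty acid, 2 each for regulators and transport), those with a called difference of effects, SREBF1, SREBF2 and INSIG1. MSMO1, HMGCS1, SCD and NPC1 were added after their values were seen. Up to 3 called genes of each other list were named by smallest p. Members matched GENCODE 29 by identifier for 37 of 37, and RefSeq GRCh38.p14 promoter windows by symbol for 33.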

Additional observations from a re-analysis of the deposited data

Results flagged for a closer look

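In 14 of 148 sets of 4 libraries (1 member in 1 group), 1 library stood far from the other 3 by Dixon's test. The nominal rate of about 1 in 20 holds for independent sets, and these are not independent, since members vary together between libraries. The share over all tested genes is not given, so the count is not read as particular to the members. Of the 14, 9 were high values of shScramble replicate 1. With doxycycline they were MVD at 14.1 CPM, FDPS at 204 CPM, CYP51A1 at 15.5 CPM, HSD17B7 at 17.9 CPM, EBP at 102 CPM and FADS1 at 346 CPM. Without doxycycline they were FDPS at 168 CPM, GGPS1 at 57.8 CPM and NPC2 at 324 CPM. Replicate 4 of uninduced shAKAP2 was high in INSIG1 at 119.9 CPM, ABCA1 at 21.7 CPM and SCD at 352 CPM, and replicate 3 of that group was low in GGPS1 at 39.7 CPM and SCAP at 48.7 CPM.

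The doxycycline effect differed between the lines, by the interaction term of edgeR's quasi-likelihood fit, for 9 members. The difference (shAKAP2 minus shScramble, log2) was 0.44 for ACAT2, 1.32 for MVK, 0.42 for PMVK, 0.80 for SQLE, 0.70 for NSDHL, 1.31 for HSD17B7, 0.97 for SC5D, 1.33 for DHCR7 and -1.22 for ELOVL6.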

How the results depend on the processing

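No member called in the fit of all libraries changed direction under any alternative run. With the 2 compared groups alone, 20 members rose and 6 fell in the shAKAP2 line, and 5 were lower in shAKAP2 cells without doxycycline; the difference of effects could not be fitted that way. Without both shScramble replicate 1 libraries, 20 rose and 6 fell in the shAKAP2 line, 2 rose and 1 fell in the shScramble line, 15 had a higher and 3 a lower effect in the shAKAP2 line, 19 were higher and 6 lower in shAKAP2 cells with doxycycline, and 3 were higher and 6 lower without it. Without the low-count filter the difference of effects passed higher for 5 members in place of 8, with DHCR7, HSD17B7 and SQLE lost. DESeq2 called 2 higher and 4 lower in shAKAP2 cells without doxycycline, and in the shAKAP2 line 15 risen and 4 fallen. The cause of these moves was not tested. Calls over all genes moved as well. In the shAKAP2 line 13.1% of tested genes rose and 15.2% fell in the main fit. These shares were 21.7% and 21.9% with the 2 groups alone, and 19.3% and 20.1% without both shScramble replicate 1 libraries. For the other alternative fits and comparisons the shares are not given, so their counts are not read as particular to the members.

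Leaving out 1 library at a time gave 11 to 16 risen and 2 to 5 fallen members in the shAKAP2 line, 0 in the shScramble line, and 7 to 16 higher and 1 lower for the difference of effects. Between the lines it gave 7 to 17 higher and 5 to 6 lower with doxycycline, and 1 to 2 higher and 1 to 11 lower without it.

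With the replicate block, 16 members rose and 5 fell in the shAKAP2 line. Deviations of libraries with the same number correlated at -0.0178 to 0.053 in that line and at 0.0234 to 0.4002 in the shScramble line. Of the 4 numbers, 3 and 2 were best matched to themselves. In shScramble the values were 0.4002 for replicate 1 and 0.1973 for replicate 3. The labels do not state a pairing, and the main fit did not pair the samples. The block treated equal numbers as shared across both lines, where they correlated at -0.0996 to 0.0219 with and -0.0415 to 0.027 without doxycycline. Pairing within the shScramble line alone was not tested. Total counts overlapped between groups, and the spread of 4 libraries limits small effects most for SCD and INSIG1, whose SEs were 0.733 and 0.489.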
